A study of Mus musculus with 6 samples.

Results

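Polycomb and trithorax proteins are opposing sets of chromatin regulators. Polycomb repressive complex 2 (PRC2) places a repressive methyl mark on histone H3, and Polycomb repressive complex 1 (PRC1) reads that mark or attaches ubiquitin to histone H2A. The trithorax side includes the KMT2 methyltransferases, which mark active promoters and enhancers, and a demethylase that removes the PRC2 mark. Both sets were found through their control of Hox genes, the homeobox genes that give cells their position along the body and limbs, and fibroblasts keep part of that positional Hox pattern in culture. The genes described here are 38 such regulators taken from a fixed list by symbol, 29 Polycomb and 9 trithorax, out of 51826 genes in each table. Every one of the 38 passed the filter on low counts, which left 14652 genes to test, and all 38 reached 1 TPM (a transcript level scaled for gene length and library size) in every culture.

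Bulk RNA sequencing was run on cultured mouse embryonic fibroblasts (MEFs), which are primary cells of embryonic connective tissue, from C57BL/6 mice. The wild-type group (WT, Lztr1 +/+) holds cultures 10, 12 and 16, and the heterozygous group (Het, Lztr1 +/-) holds cultures 11, 15 and 18. All were labelled as passage 2 to 5 and grown in DMEM with glutamine on uncoated plastic, with no treatment listed. LZTR1 is an adaptor of a CUL3 ubiquitin ligase that acts on RAS proteins. How the mutant allele was made, and which embryo or litter gave each culture, was not stated in the labels. The p-values therefore reflect only how far these cultures vary, part of which may be technical.

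Library totals ran from 11025286 to 21885101 expected counts. Lztr1 lay at 83.2 to 94.1 CPM (counts over the scaled library total) in the WT cultures and 43.8 to 45.9 CPM in the Het cultures, in keeping with the labels. All 10 fibroblast markers were above 1 TPM, with summed levels of 10603 to 12350 TPM in WT and 10215 to 11252 TPM in Het cultures. Markers of other cells were also present and varied between cultures: the summed level of 6 macrophage and blood cell markers ran from 204 to 283 TPM in WT and from 179 to 320.0 TPM in Het cultures. Xist was high in cultures 10, 16 and 11 and Y-linked genes in 12, 15 and 18, so sex was unequally divided between the genotypes. In bulk RNA, fewer cells of a type and less RNA per cell cannot be told apart.

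The regulators were nearly the same in both genotypes. No member passed edgeR's quasi-likelihood test at a Benjamini-Hochberg adjusted p under 0.05, beside 1 gene (Lztr1), or 0.00683%, of all genes tested. DESeq2 also called 0 of the 38, beside 0.764% of all genes tested, but it gave no adjusted p to some genes, which stay in both shares. Among the members these were Ezh1, Jarid2, Phf1, Phf19, Ring1, Pcgf1, Pcgf5, Pcgf6, Cbx2, Cbx7 and Cbx8, so they could not be called. At an unadjusted p under 0.05 edgeR gave 5 members, 2 higher and 3 lower in Het cultures, and DESeq2 gave 4. The 5 make up 13.2% of the members, and the share over all genes was 12.2%. The WT and Het values did not overlap in 5 members, again 13.2%, beside 17.7% of all genes. Of these 2 were higher in Het cultures (7.75% of all genes) and 3 lower (9.97% of all genes). The members therefore stood at the background of the whole table on both counts.

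The size of any difference was bounded closely. Estimated log2 differences, Het over WT, ran from -0.33 for Phf1 to 0.33 for Pcgf5, and 0 members exceeded 0.5 in size, beside 6.29% of all genes. The 95% confidence interval of the ratio lay inside 1.5-fold in either direction for 35 of the 38, or 92.1%, beside 66.4% of all genes. The exceptions were Pcgf5 (95.2% to 166% of the WT level), Cbx7 (60.5% to 124%) and Cbx8 (64.2% to 117%), which are among the members with the fewest counts. Across all 6 cultures the highest CPM of a member was 1.05 to 1.69 times its lowest, with a median of 1.22 times. The median SD of log2 CPM over the 6 cultures was 0.10 for members and 0.15 for all genes, whose median level is lower (22.1 CPM, against 58.4 CPM for the members).

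**Figure D1:**
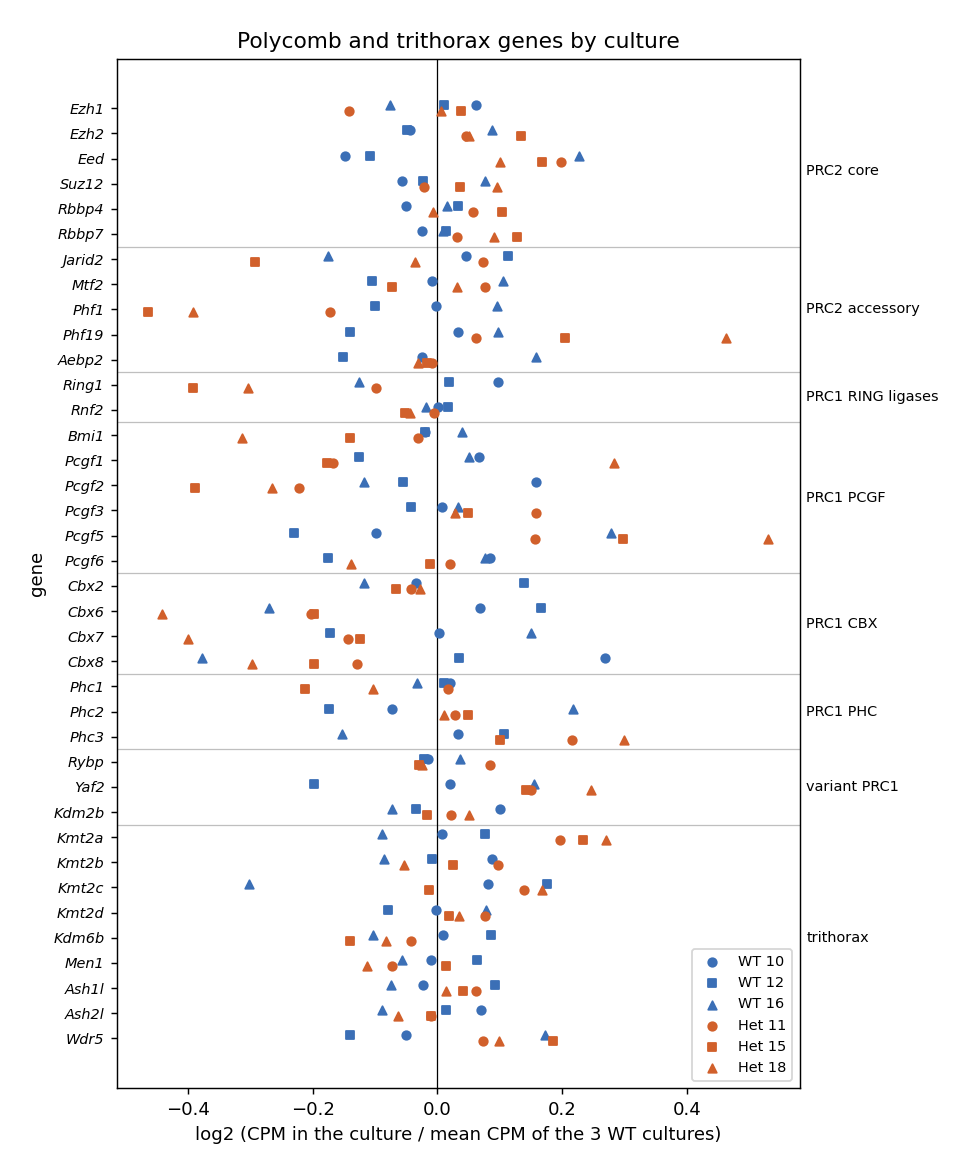
Level of each of the 38 genes in each culture, as log2 of its CPM over the mean CPM of the 3 WT cultures (blue WT, orange Het; marker shape gives the culture), grouped by complex. Most genes lie within 0.2 of the WT mean in every culture, and Pcgf5 has the widest spread, with a highest value 1.69 times its lowest.

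Polycomb genes and trithorax genes did not part from each other in size. The median log2 difference was -0.02 over the 29 Polycomb genes (14 higher, 15 lower), 0.04 over the 9 trithorax genes (6 higher, 3 lower) and -0.0018 over all genes tested, of which 49.6% were higher. Over all 38 members 20 were higher and 18 lower, and scaling by library totals alone turned this to 16 higher and 22 lower, while the median over all genes moved to -0.03. Relative to the WT mean, the Polycomb list mean stood at 0.02, -0.04 and 0.02 on the log2 scale in WT cultures 10, 12 and 16, and at 0.01, -0.04 and -0.01 in Het cultures 11, 15 and 18. The trithorax mean stood at 0.02, 0.03 and -0.06 in the WT cultures and at 0.06, 0.04 and 0.03 in the Het cultures. The Polycomb means of the genotypes overlapped, and so did the trithorax means, where Het culture 18 lay beside WT culture 12. Without WT culture 16 the trithorax median was -0.01 and the Polycomb median 0.0073.

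**Figure D2:**
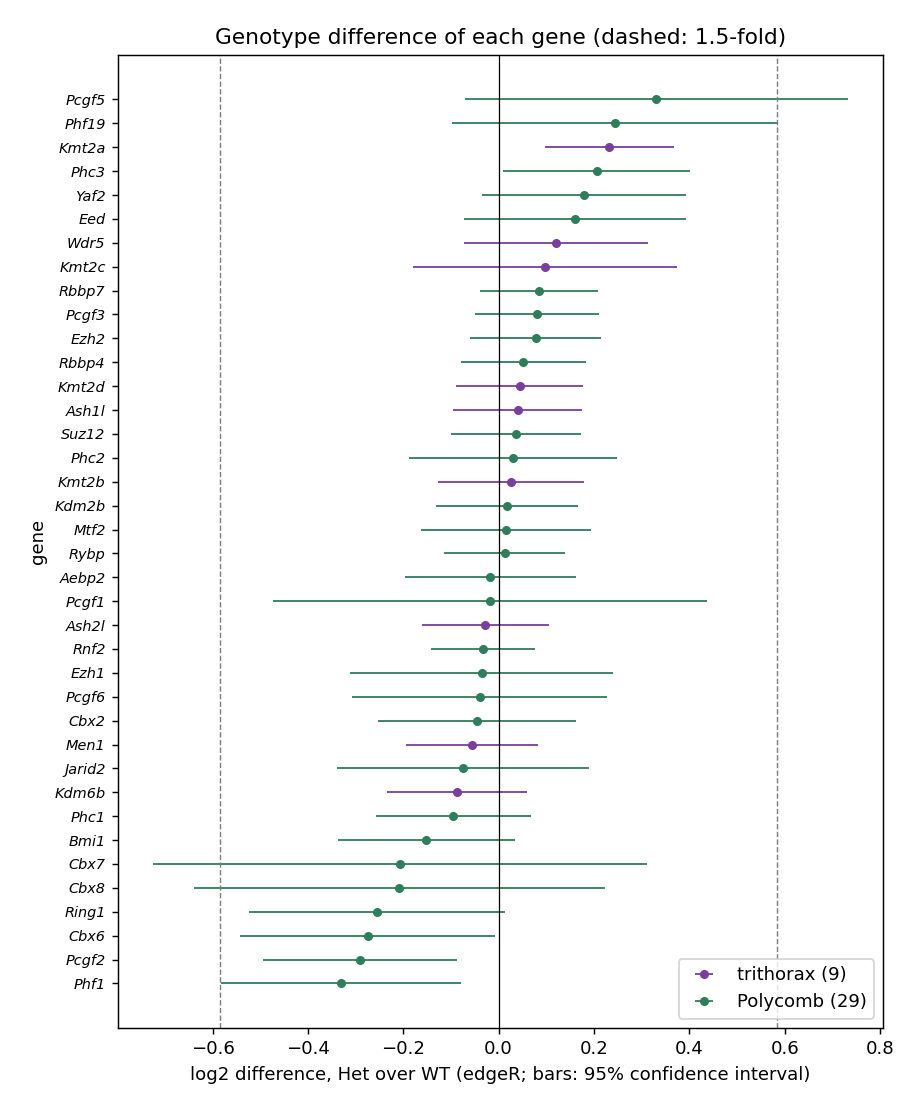
Log2 difference of each gene, Het over WT, with its 95% confidence interval from the edgeR fit, for 29 Polycomb and 9 trithorax genes. The dashed lines mark 1.5-fold, which 3 intervals cross, those of Pcgf5, Cbx7 and Cbx8.

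PRC2 is built on the methyltransferase EZH2 or its relative EZH1, with EED, which reads the mark, SUZ12, the scaffold, and the histone-binding proteins RBBP4 and RBBP7. In these fibroblasts Ezh2 was the main transcript of the pair, and enzyme activity was not measured. Ezh2 (chromosome 6, 47530139 to 47595341 in mm10, minus strand) averaged 75.8 ± 5.15 TPM in WT and 71.2 ± 2.58 TPM in Het cultures (SD, n = 3 each). Ezh1 (chromosome 11, 101191115 to 101226463, minus strand) averaged 4.43 ± 0.580 TPM in WT and 4.72 ± 0.662 TPM in Het cultures. Ezh2 thus made up 92.6% to 95.5% of their summed TPM in the 6 cultures, and the ratio of Ezh2 to Ezh1 averaged 17.4 ± 3.46 in WT and 15.3 ± 2.50 in Het cultures. Between genotypes Ezh1 differed by -0.04 (SE 0.12) and Ezh2 by 0.08 (SE 0.060) on the log2 scale by edgeR on counts. Both signs turned by limma on log2(TPM + 1), to 0.07 for Ezh1 and -0.09 for Ezh2.

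Among the core subunits of PRC2 the highest culture was 1.11 to 1.297 times the lowest, the widest being Eed. Rbbp7, the most abundant at 293 TPM over all cultures, measured 303, 311 and 310 CPM in WT cultures 10, 12 and 16 and 315, 337 and 328 CPM in Het cultures 11, 15 and 18. By CPM the Het values all lay above the WT values, and the highest of the 6 was 1.11 times the lowest. By TPM the groups overlapped, at 285, 305 and 265 in the WT cultures and 289, 306 and 306 in the Het cultures. The genotypes differed by 0.08 on the log2 scale (SE 0.054, edgeR adjusted p 0.546). Rbbp7 is on the X chromosome, and sex was unequally divided between the genotypes. With a term for Y-linked expression its difference was 0.07. Rbbp4 differed by 0.05 (SE 0.057) and Suz12 by 0.04 (SE 0.059), both with overlapping groups. Rbbp4 reads may be shared with processed copies of the gene, so its level is less certain.

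Eed depended on WT culture 16. It measured 43.8, 45.0 and 56.8 CPM in WT cultures 10, 12 and 16 and 55.7, 54.5 and 52.0 CPM in Het cultures 11, 15 and 18. Culture 16 was the highest of all 6, above every Het culture. Eed differed by 0.16 on the log2 scale (SE 0.10, edgeR adjusted p 0.542), and by 0.33 within cultures 10 to 12 and -0.09 within cultures 15 to 18. Without WT culture 16 it was 0.29 (edgeR adjusted p 0.0358). That fit called 896 genes, or 5.93% of those it tested, and 2 members (Eed as higher and Cbx6 as lower), or 5.26%. The WT cultures left in it, 10 and 12, share a range of culture numbers.

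PRC2 accessory subunits direct the complex to chromatin. PHF1, MTF2 and PHF19 are the Polycomb-like proteins of one form of PRC2, and JARID2 and AEBP2 belong to the other. Phf1 (chromosome 17, 26933052 to 26937908, plus strand) had the lowest estimate of all members. It measured 19.6, 18.3 and 21.0 CPM in WT cultures 10, 12 and 16 and 17.4, 14.2 and 14.9 CPM in Het cultures 11, 15 and 18. All Het values lay below all WT values, with culture 11 nearest to them. The log2 difference was -0.33 (SE 0.11), an unadjusted p of 0.0165 and an adjusted p of 0.330 by edgeR, and it was -0.12 within cultures 10 to 12 and -0.52 within cultures 15 to 18.

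Its relatives did not share that position. Phf19, the least abundant of the accessory genes at 5.13 TPM, measured 8.67, 7.69 and 9.06 CPM in the WT cultures and 8.85, 9.77 and 11.7 CPM in Het cultures 11, 15 and 18. The groups overlapped at culture 11, and the log2 difference was 0.24 (SE 0.15). Mtf2 differed by 0.01 (SE 0.077), Jarid2 by -0.08 (SE 0.11) and Aebp2, the most abundant at 53.8 TPM, by -0.02 (SE 0.078). Aebp2 measured 102, 93.2 and 115 CPM in the WT cultures and 103, 102 and 101 CPM in the Het cultures. Its Het values lay inside the WT range.

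PRC1 is built on a RING ligase, RING1 or RNF2, that attaches ubiquitin to histone H2A. Rnf2 (chromosome 1, 151458004 to 151500955, minus strand) made up 80.5% to 87.0% of the summed TPM of both genes. It was the steadiest member, at 101, 102 and 99.5 CPM in WT cultures 10, 12 and 16 and 100, 97.2 and 97.8 CPM in Het cultures 11, 15 and 18. Its log2 difference was -0.03 (SE 0.048). Ring1 measured 16.99, 16.1 and 14.6 CPM in the WT cultures and 14.8, 12.1 and 12.9 CPM in the Het cultures. Het cultures 15 and 18 lay below all WT cultures and Het culture 11 did not. The log2 difference of Ring1 was -0.26 (SE 0.12), with an unadjusted p of 0.0606 by edgeR.

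A PCGF subunit pairs with the RING ligase and sets which form of PRC1 it belongs to. PCGF2 and BMI1 mark the canonical forms that carry CBX and PHC subunits, PCGF1 pairs with KDM2B, and PCGF3, PCGF5 and PCGF6 mark other variant forms. Pcgf2 was the most abundant of the 6 genes at 44.8 TPM over all cultures, and Pcgf5 the least at 10.6 TPM. Upstream sequence is shown for Pcgf2 and Bmi1, which fill the same place in canonical PRC1, and for Kmt2a, the trithorax gene with the smallest p. Each window ends at the RefSeq start site, with bases in an annotated exon left off, and capitals mark CG dinucleotides (CpG sites), the element that KDM2B and KMT2A bind when unmethylated.

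Pcgf2, mm10 chr11:97699649-97699898, minus strand, 5 CpG: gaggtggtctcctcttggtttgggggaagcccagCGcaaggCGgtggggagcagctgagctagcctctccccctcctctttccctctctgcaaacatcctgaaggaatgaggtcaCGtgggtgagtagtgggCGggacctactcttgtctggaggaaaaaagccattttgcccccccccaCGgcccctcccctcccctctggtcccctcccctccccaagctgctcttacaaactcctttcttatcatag
Bmi1, mm10 chr2:18676768-18677017, plus strand, 21 CpG: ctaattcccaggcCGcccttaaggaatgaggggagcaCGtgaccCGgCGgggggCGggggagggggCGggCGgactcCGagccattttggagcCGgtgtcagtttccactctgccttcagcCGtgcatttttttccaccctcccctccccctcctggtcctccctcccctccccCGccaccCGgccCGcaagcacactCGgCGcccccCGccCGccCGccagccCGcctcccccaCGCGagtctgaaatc
Kmt2a, mm10 chr9:44881297-44881539, minus strand, 29 CpG: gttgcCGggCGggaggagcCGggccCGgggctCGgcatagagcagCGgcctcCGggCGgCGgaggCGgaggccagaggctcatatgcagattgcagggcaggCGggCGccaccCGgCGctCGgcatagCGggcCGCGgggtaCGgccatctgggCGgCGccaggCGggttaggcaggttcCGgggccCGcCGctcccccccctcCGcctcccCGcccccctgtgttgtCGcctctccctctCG

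The RefSeq table (GRCm38.p6, the assembly of mm10) held 43 such windows of 250 bases for 30 of the 38 members. Their median was 21 CpG, beside 6 over all 32851 windows and 12.5 over 24 windows of Hox genes. The Pcgf2 window is low in CpG for a member, but it lies wholly inside the annotated gene, which spans 97688823 to 97700497. Its count describes that window only, and not the sequence upstream of the whole gene. The cell-cycle motif of E2F factors (TTTCCCGC, TTTGGCGC or TTTCGCGC, both strands) was found in 2 member windows (4.65%), those of Suz12 and Phf19, in 31.6% of 19 windows of DNA replication genes and in 1.53% of all windows. The motif CCGGAAG, a core of binding sites for ETS factors, was found on either strand in 1 member window (2.33%) and in 6.91% of all windows. A match is a description of letters and not evidence of a bound factor.

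Pcgf2 measured 53.6, 46.3 and 44.3 CPM in WT cultures 10, 12 and 16 and 41.2, 36.7 and 40.0 CPM in Het cultures 11, 15 and 18. All Het cultures lay below all WT cultures. The log2 difference was -0.29 (SE 0.089), with an unadjusted p of 0.0110 and an adjusted p of 0.317 by edgeR. It was -0.27 within cultures 10 to 12 and -0.21 within cultures 15 to 18. Within the samples registered first (cultures 10, 12, 15 and 18) it was -0.38, and between cultures 16 and 11, registered later, -0.10. By TPM, Pcgf2 made up 35.6% ± 2.51 of the 6 PCGF genes in WT and 30.2% ± 1.9998 in Het cultures (SD, n = 3 each), with every Het culture below every WT culture.

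Bmi1 also had separated groups by CPM, but not by TPM. It measured 47.4, 47.4 and 49.3 CPM in WT cultures 10, 12 and 16 and 47.0, 43.6 and 38.7 CPM in Het cultures 11, 15 and 18. Culture 11 lay just below WT cultures 10 and 12, and culture 18 was the lowest. Bmi1 differed by -0.15 on the log2 scale (SE 0.080, unadjusted p 0.0963 by edgeR). On log2(TPM + 1), where RSEM's length estimate for each library enters, limma gave a difference of 0.0027. Its share of PCGF TPM was 22.1% ± 0.583 in WT and 23.6% ± 4.89 in Het cultures.

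The PCGF genes of variant PRC1 had small differences or few counts. Pcgf3 differed by 0.08 (SE 0.056), Pcgf6 by -0.04 (SE 0.12) and Pcgf1, with 44 to 82 counts per library, by -0.02 (SE 0.20). Pcgf5 measured 7.26, 6.63 and 9.43 CPM in WT cultures 10, 12 and 16 and 8.66, 9.55 and 11.2 CPM in Het cultures 11, 15 and 18. WT culture 16 lay among the Het cultures. The log2 difference of Pcgf5 was 0.33 (SE 0.17), and it was 0.57 within the samples registered first (cultures 10, 12, 15 and 18) and -0.12 between cultures 16 and 11, registered later.

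**Figure D3:**
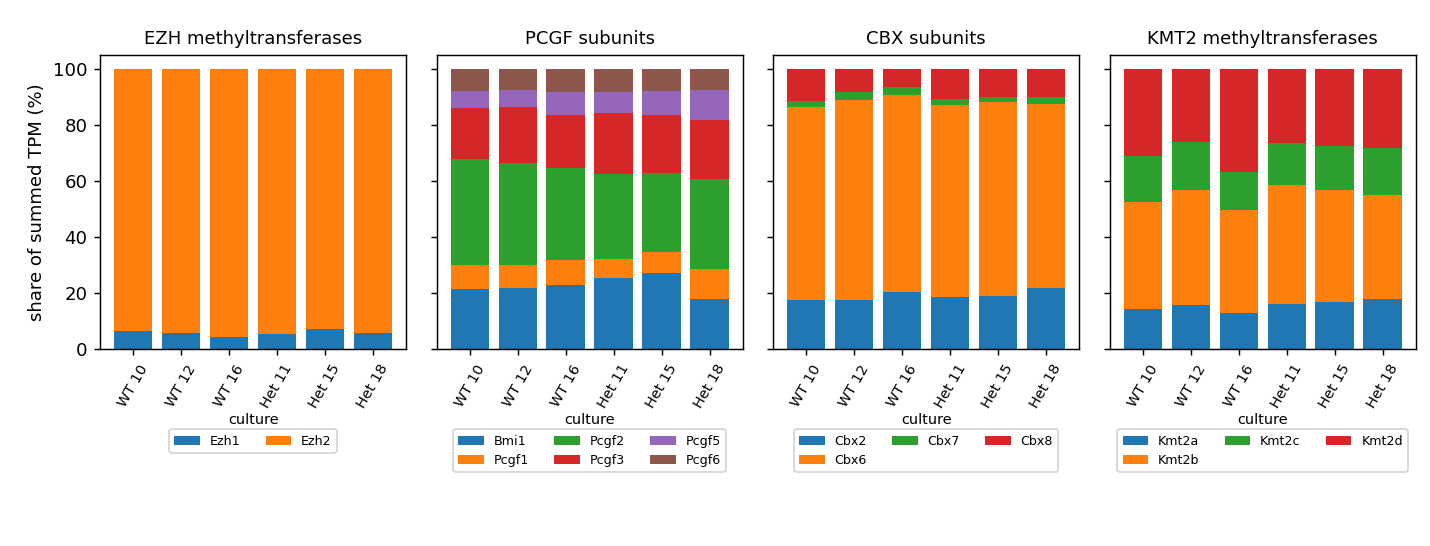
Share of the summed TPM taken by each gene of 4 families in each culture, as stacked bars that reach 100%. Ezh2 takes 92.6% to 95.5% of the EZH pair and Cbx6 65.5% to 71.2% of the 4 CBX genes in every culture, and the Pcgf2 share is 32.8% to 37.7% in WT and 28.1% to 32.1% in Het cultures.

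CBX subunits carry the chromodomain with which canonical PRC1 reads the PRC2 mark. All 4 CBX genes had a lower mean CPM in Het cultures, with a median log2 difference of -0.21, and in none of them were the groups apart. By limma on log2(TPM + 1) Cbx8 turned to 0.09. Cbx6 (chromosome 15, 79823896 to 79834688, minus strand) was the most abundant at 36.4 TPM. It measured 129, 138 and 102 CPM in WT cultures 10, 12 and 16 and 107, 108 and 90.8 CPM in Het cultures 11, 15 and 18. WT culture 16 lay among the Het cultures. Cbx6 differed by -0.27 on the log2 scale (SE 0.12, edgeR unadjusted p 0.0457 and adjusted p 0.400).

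The Cbx6 difference also varied in size, and in sign, between subsets of the cultures. It was -0.32 within cultures 10 to 12 and -0.05 within cultures 15 to 18. Within the samples registered first it was -0.44, and between cultures 16 and 11, registered later, it was 0.07. Without WT culture 16 it was -0.39 (edgeR adjusted p 0.0345). Of the 10 fibroblast markers 7 had a lower and 3 a higher mean in Het cultures, the latter being Vim (0.19), Thy1 (0.15) and Fn1 (0.07). The matrix genes Lum and Dcn, picked from the 7 after their values were seen, were also low in WT culture 16. Lum stood at 121, 114 and 59.6 CPM in the WT cultures and 65.8, 62.5 and 41.6 CPM in the Het cultures, and Dcn at 159, 153 and 79.4 CPM in the WT and 84.9, 84.9 and 80.6 CPM in the Het cultures. The part of culture composition in the Cbx6 values was not tested.

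The other CBX genes were low. Cbx7, the least abundant of all members at 1.297 TPM, measured 2.40, 2.12 and 2.65 CPM in the WT cultures and 2.17, 2.19 and 1.81 CPM in the Het cultures. These come from 20 to 47 counts per library, and a difference was not detectable at this depth (-0.21, SE 0.23). Cbx8 differed by -0.21 (SE 0.19) and Cbx2 by -0.04 (SE 0.090).

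PHC subunits join PRC1 complexes into larger assemblies through their SAM domains. Phc2 was the main gene, with 72.6% to 78.8% of the summed TPM of the 3. It measured 152, 141 and 185 CPM in the WT cultures and 162, 165 and 161 CPM in the Het cultures, which lay inside the WT range (log2 difference 0.03, SE 0.095). Phc3, the least abundant at 8.97 TPM, measured 49.3, 52.0 and 43.4 CPM in WT cultures 10, 12 and 16 and 56.0, 51.7 and 59.3 CPM in Het cultures 11, 15 and 18. The groups overlapped at Het culture 15. Its log2 difference was 0.21 (SE 0.085, edgeR unadjusted p 0.0416 and adjusted p 0.391), and Phc1 differed by -0.09 (SE 0.070).

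RYBP and YAF2 take the place of CBX proteins in variant PRC1, and KDM2B brings the PCGF1 form to unmethylated CpG sites. Yaf2 was the most abundant of the 3 genes at 44.9 TPM. It measured 39.9, 34.3 and 43.8 CPM in the WT cultures and 43.6, 43.4 and 46.7 CPM in the Het cultures, with WT culture 16 among the latter (log2 difference 0.18, SE 0.093). Kdm2b, the least abundant at 28.2 TPM, measured 61.0, 55.6 and 54.1 CPM in the WT cultures and 57.8, 56.3 and 59.0 CPM in the Het cultures. Its groups overlapped (0.02, SE 0.065), and Rybp differed by 0.01 (SE 0.055).

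On the trithorax side, Kmt2a had the smallest unadjusted p of all 38 members. It encodes MLL1, a methyltransferase known for keeping Hox genes active, and lies on chromosome 9 from 44803355 to 44881296 on the minus strand. Kmt2a measured 78.6, 82.5 and 73.5 CPM in WT cultures 10, 12 and 16 and 89.6, 91.9 and 94.3 CPM in Het cultures 11, 15 and 18. All Het cultures lay above all WT cultures. The log2 difference was 0.23 (SE 0.059), with a confidence interval of 107% to 129% of the WT level. The unadjusted p was 0.00426 and the adjusted p 0.313 by edgeR, and DESeq2 gave an adjusted p of 0.116. Cultures 10 to 12 alone gave 0.15, and cultures 15 to 18 gave 0.34.

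The relatives and partners of KMT2A lay closer to 0. Over the 8 other trithorax genes the log2 differences ran from -0.09 to 0.12, with SE values of 0.058 to 0.12, and none had separated groups. Kmt2b, the nearest relative, differed by 0.03 (SE 0.066), and Men1, the menin cofactor of both, by -0.06 (SE 0.061). Kmt2d and Kmt2c, which act at enhancers, differed by 0.04 (SE 0.058) and 0.10 (SE 0.12). Kmt2c, the least abundant trithorax gene at 8.71 TPM, measured 43.7, 46.7 and 33.5 CPM in the WT cultures and 45.5, 40.9 and 46.4 CPM in the Het cultures, with WT culture 16 as the lowest of the 6.

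ASH2L and WDR5 are shared by all KMT2 complexes. Ash2l, the most abundant trithorax gene at 65.3 TPM, measured 94.3, 90.8 and 84.5 CPM in the WT cultures and 89.2, 89.2 and 86.1 CPM in the Het cultures, which lay inside the WT range (-0.03, SE 0.058). Wdr5 differed by 0.12 (SE 0.084), and by 0.22 without WT culture 16 (edgeR adjusted p 0.0710). Ash1l, a methyltransferase that opposes PRC2, differed by 0.04 (SE 0.059). Kdm6b, the demethylase that removes the PRC2 mark, differed by -0.09 (SE 0.064), with overlapping groups for each of these genes.

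Hox genes, the best-known targets of both sets, varied more than the regulators. The median SD of log2 CPM over the 6 cultures was 0.33 for 37 tested Hox genes and 0.10 for the 38 regulators. The Hox genes have fewer counts, with a median level of 6.92 CPM, and the part of that in their spread was not tested. None passed the adjusted threshold in edgeR and 10 (27.0%, beside 12.2% of all genes) had an unadjusted p under 0.05, all lower in Het cultures, where 6.65% of all genes were. DESeq2 called 1 Hox gene, Hoxd13 (-0.58, adjusted p 0.000668), the only Hox gene to which it gave an adjusted p. The other Hox genes were left without an adjusted p, among them Hoxa13 (DESeq2 unadjusted p 0.000339) and Hoxd12 (0.000971). Without a low-count filter edgeR called 2, and without WT culture 16 it called 5. Groups did not overlap in 13 of 37, or 35.1%, beside 17.7% of all genes, 12 lower and 1 higher. A lower Hox list in Het cultures was already known when these genes were chosen, so its direction here is no independent support.

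All of the 10 Hox genes with a low p but Hoxa2 (-0.52) were paralogs 9 to 13 of clusters A, C and D. Split by position after their values were seen, paralogs 9 to 13 had a lower mean in Het cultures in 4 of 4 HoxA, 5 of 5 HoxC and 5 of 5 HoxD genes, with medians of -0.64, -0.69 and -0.59. In HoxB 1 of 2 was lower. Among these paralogs the groups did not overlap in 4 HoxA, 5 HoxD, 1 HoxC and 0 HoxB genes, beside 17.7% of all genes. Paralogs 1 to 8 of HoxA were also lower in 6 of 7 genes, with a median of -0.17 and separated groups in 2. Paralogs 1 to 8 had medians of 0.06 in HoxB, 0.11 in HoxC and 0.04 in HoxD. Hoxd12 measured 14.8, 15.1 and 10.99 CPM in the WT cultures and 9.26, 8.92 and 6.98 CPM in the Het cultures. Hoxa13, which patterns the most distal limb, measured 11.2, 12.5 and 9.70 CPM in the WT and 7.28, 6.58 and 5.98 CPM in the Het cultures. In both genes every Het culture lay below every WT culture.

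List means per culture were also set beside the Hox clusters. The HoxA mean was 0.04, -0.09 and 0.04 in WT cultures 10, 12 and 16 and -0.26, -0.34 and -0.45 in Het cultures 11, 15 and 18. The HoxC mean was lowest in Het culture 11 at -0.63, where Het culture 18 stood at -0.02 and WT culture 16 at -0.22. HoxB stood at -0.06, -0.02 and 0.07 in the WT and -0.25, 0.04 and 0.05 in the Het cultures, and HoxD at 0.10, 0.10 and -0.20 in the WT and -0.35, -0.35 and -0.31 in the Het cultures. PRC2 stood at -0.02, -0.04 and 0.06 in WT cultures 10, 12 and 16 and at 0.02, 4.6e-05 and 0.04 in Het cultures 11, 15 and 18. PRC1 stood at 0.04, -0.03 and -0.0086 in the WT cultures and at -0.0040, -0.07 and -0.04 in the Het cultures. No relation between the lists was tested, and protein levels and histone marks were not measured.

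**Figure D4:**
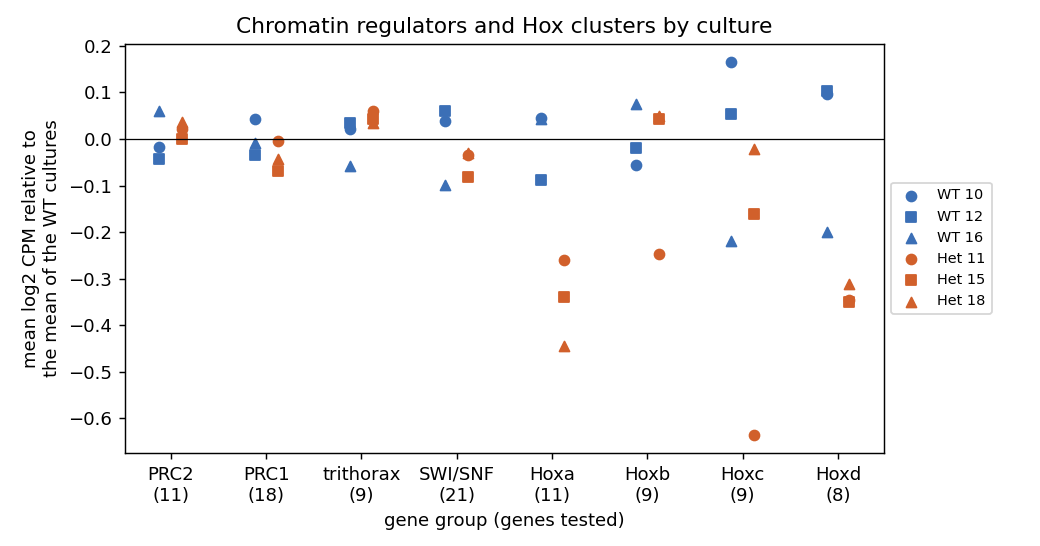
Mean log2 CPM of each gene group in each culture relative to the mean of the WT cultures (blue WT, orange Het; marker shape gives the culture; genes tested in parentheses). The group means of PRC2, PRC1 and trithorax genes stay within 0.07 of 0 in every culture, though single genes go farther. Group means of Het cultures reach -0.45 in HoxA and -0.63 in HoxC.

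Wider sets of Polycomb and trithorax partners were read in the same fit, and none of their genes passed the adjusted threshold in edgeR, while DESeq2 called Smarca2. DESeq2 gave no adjusted p to some of these genes, among them Lcor. Of 18 other PRC1 and PRC2 partners 1 was higher and 1 lower at an unadjusted p under 0.05, or 11.1% beside 12.2% of all genes. These were Lcor, a PRC2 partner gene (0.62, SE 0.15, with separated groups), and Auts2, a partner of PCGF3 and PCGF5 (-0.37, SE 0.15, with overlapping groups). Of 10 genes around the H2A deubiquitinase, which reverses the PRC1 mark, 1 was higher (Hcfc1, 0.13, SE 0.057, beside 5.56% of all genes) and 1 lower (Mbd6, -0.21, SE 0.074, beside 6.65% of all genes), and the catalytic gene Bap1 differed by 0.02 (SE 0.050). Of 13 other subunits of KMT2-type complexes 0 had an unadjusted p under 0.05. The WT and Het values did not overlap in 5 of the 18 partners (27.8%, 4 higher and 1 lower in Het cultures). They did not overlap in 5 of the 10 deubiquitinase genes (50%, 3 higher and 2 lower) and 1 of the 13 KMT2-type subunits (7.69%, lower). The share over all genes was 17.7%.

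The SWI/SNF remodelers, which belong to the trithorax group by their genetics, had 3 of 21 genes lower and 0 higher at an unadjusted p under 0.05, beside 6.65% of all genes lower and 5.56% higher. Smarca2, an ATPase of the complex, measured 88.5, 94.8 and 71.4 CPM in WT cultures 10, 12 and 16 and 63.8, 61.2 and 63.8 CPM in Het cultures 11, 15 and 18. All Het cultures lay below all WT cultures, with WT culture 16 nearest to them. Its log2 difference was -0.43 (SE 0.099, edgeR unadjusted p 0.00233 and adjusted p 0.313), and DESeq2 gave -0.43 with an adjusted p of 0.0251. The further genes below 0.05 were Phf10 (-0.24, SE 0.064) and Smarcd2 (-0.22, SE 0.064), and the alternative ATPase gene Smarca4 differed by 0.08 (SE 0.052). The remaining SWI/SNF genes lay between -0.22 and 0.09. Groups did not overlap in 7 of the 21 genes (33.3%, 3 higher and 4 lower in Het cultures), beside 17.7% of all genes.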

How the data were processed

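The authors deposited 1 RSEM gene table per library. Expected counts, TPM, FPKM and effective lengths are named per the file headers, and RSEM 1.3.1, DESeq2 and build mm10 are named per the submitters' processing notes. Read alignment, gene models and strandedness of the counting were not given in the sources used here, and overlapping genes and near-identical copies were not resolved. The deposited expected counts are estimates of reads per gene. The deposited TPM values were used for levels between genes and for 1 alternative test. The deposited FPKM values and effective lengths were not used.

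Symbols came from a gene name table matched by Ensembl number (51633 of 51826 genes) and mm10 coordinates from GENCODE M21. Expected counts were rounded, filtered with filterByExpr, scaled with TMM factors and compared over the 6 libraries without covariates with edgeR 4.0.16 (R 4.3.3), whose quasi-likelihood test is two-sided, with Benjamini-Hochberg adjustment over 14652 genes. SE and 95% intervals come from that fit, and CPM values are counts per 1e6 of the TMM-scaled totals. Log2 levels use a prior count of 2. An exact permutation test of 3 against 3 cultures cannot give a two-sided p under 0.1, so none was used. Alternatives were DESeq2 1.42.0, limma 3.58.1 on log2(TPM + 1), other scaling and filtering, terms for culture number range, registration range and Y-linked expression, and leaving out each culture. The edgeR script was tested on simulated data. At the adjusted threshold it recovered 4% of 1.25-fold, 58% of 1.5-fold and 80% of 2-fold differences. There were 15 false calls among 14652 genes tested, which is a larger share of the genes called. The changed genes were drawn from those with higher counts, and no sex or culture effect was simulated.

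The members and lists were chosen with earlier results of these data known. Values in all cultures are given for members with an unadjusted p under 0.05 or separated groups, and for the most and least abundant of each sub-group by TPM. In other lists up to 4 genes, or 6 Hox genes, with the smallest p could be named. Culture values of Eed, the genes Bap1, Smarca4, Kdm6a, Uty, Lum, Dcn, Vim, Thy1, Fn1 and Hoxa2, and the upstream windows were chosen outside that rule after values were seen.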

Additional observations from a re-analysis of the deposited data

How the results depend on the processing

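Members past the adjusted threshold numbered 0 in 12 of 13 alternatives, the exception being the fit without WT culture 16 (2 members). DESeq2 was among the 12 and gave no adjusted p to some members. No paired analysis was possible because the groups share no culture numbers. Leaving out each culture in turn gave 0 to 896 genes called over the whole table, 0 to 2 members past the adjusted threshold, and 2 to 12 members at an unadjusted p under 0.05, the highest each time without WT culture 16. In these fits the Polycomb median ran from -0.0207 to 0.0217 and the trithorax median from -0.0112 to 0.0571. Over the whole table DESeq2 called 112 genes, edgeR without a low-count filter 32 and limma on log2(TPM + 1) 0 (1693 at an unadjusted p under 0.05). Members at an unadjusted p under 0.05 numbered 2 by limma on log2(TPM + 1) and 3 with a term for Y-linked expression, which also put the Polycomb median at 0.0228. Bmi1 turned to 0.0027 by limma on log2(TPM + 1). The other members in the separated or low-p set kept their sign in all 13 alternatives, and of the 31 remaining members 0 to 6 changed sign in an alternative. The causes were not tested. Cbx7 and Pcgf1 are limited by their counts.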

Other observations

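Kdm6a, an X-linked demethylase gene of the KMT2C and KMT2D complexes, followed the sex of the cultures. It measured 50.8, 49.5 and 50.1 CPM in cultures 10, 16 and 11, where Xist was high, and 35.8, 31.8 and 31.8 CPM in cultures 12, 15 and 18, where Y-linked genes were high. Its Y-linked relative Uty measured 18.4, 16.7 and 16.03 CPM in cultures 12, 15 and 18 and at most 0.0915 CPM in the others. Since sex was unequally divided between the genotypes, its part in the Kdm6a log2 difference of -0.25 (SE 0.20) was not tested.

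Cdkn2a and Cdkn2b, cell-cycle inhibitor genes that Polycomb proteins are known to repress in fibroblasts, varied between cultures of 1 genotype. Cdkn2a measured 14.1, 12.3 and 18.4 CPM in WT cultures 10, 12 and 16 and 12.4, 10.3 and 20.7 CPM in Het cultures 11, 15 and 18. The highest and lowest values were both in Het cultures, and the log2 difference was -0.06 (SE 0.26). Cdkn2b had its highest value, 53.1 CPM, and its lowest, 34.0 CPM, in the same Het cultures, 18 and 15. DNA replication genes had 5 of 23 members higher and 0 lower at an unadjusted p under 0.05, beside 5.56% of all genes higher and 6.65% lower, with a median log2 difference of 0.08, and Ccne2 (0.26, SE 0.076) had the smallest p.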
